A study of Homo sapiens with 4 samples.

Results

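CD44 and 9 further genes of hyaluronan signalling and turnover were followed in U87MG spheres with and without abemaciclib. The genes were chosen by name: the receptors CD44 and HMMR, the synthases HAS1, HAS2 and HAS3, and the hyaluronidases HYAL1, HYAL2, HYAL3, CEMIP and CEMIP2. All 10 names were found once among the 60617 genes listed for each library, and all 10 passed the filter on low counts. U87MG is an established human glioblastoma line, grown here as spheres in DMEM/F12 with EGF and bFGF (20 ng/ml each), N2 and 2% B27. One group was untreated and the other received abemaciclib, an inhibitor of the cell cycle kinases CDK4 and CDK6, and all spheres were collected at day 14. Each group had 2 poly-A RNA libraries, and neither the dose nor a vehicle for the untreated spheres was given in the sources used here. The labels do not say that the libraries came from separate cultures, so p-values reflect the spread among these 4 libraries alone, and that spread may be technical.

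Hyaluronan is a long, unbranched sugar polymer of the extracellular matrix and a main component of the matrix of the brain. Membrane-bound HAS enzymes make it from UDP-glucuronic acid and UDP-N-acetylglucosamine and push it out of the cell as it grows. Hyaluronidases cut it, the CEMIP proteins act in its breakdown, and lysosomal exoglycosidases take the fragments apart. CD44 is its main cell-surface receptor, marks the mesenchymal state of glioma and is widely used as a marker of glioma stem-like cells. The title of the series names CD44 as a gene that abemaciclib acts on through GSK3b, and the study may have picked it from these libraries, so its direction here is not independent evidence.

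The libraries held 23684260 to 33418075 expected counts. Levels are given in CPM, expected counts brought to the same library total with TMM scaling factors, which adjust for differences in RNA composition. The share of mitochondrially encoded genes was 4.27% and 4.66% untreated and 11.8% and 11.7% after the drug, and with these genes left out all 10 genes kept their direction and call (CD44 at -1.48 on the log2 scale). Of the glioma markers, VIM (5964 and 4369 CPM, group means untreated and after the drug), CHI3L1 (11610 and 2851 CPM) and NES (97.7 and 69.3 CPM) were well above the floor, whereas GFAP lay at 0.252 and 0.231 CPM and S100B and ALDH1L1 had 3 counts or fewer in every library. SOX2 had 3 counts over the untreated libraries and 23 after the drug. Of the markers of other cell types, the macrophage and microglia marker AIF1 was at 0 in all 4 libraries. The summed level of 4 macrophage and microglia markers was 514 to 524 CPM untreated and 1078 to 1106 CPM after the drug, nearly all of it CD68, while CSF1R fell (11.2 ± 0.399 to 5.54 ± 0.325 CPM) and ITGAM lay at 0.153 CPM or less in every library. That of 4 fibroblast and pericyte markers was 2543 to 2620 and 1640 to 1706 CPM, most of it COL1A1 (means 2007 and 1542 CPM). PDGFRB fell further (571.2 and 127.8 CPM), RGS5 differed little (3.09 and 3.57 CPM) and DES was low (0.101 and 0.0946 CPM). The summed level of 3 endothelial markers was 13.8 to 14.9 and 6.996 to 7.52 CPM. Among them PECAM1 fell (means 9.78 and 1.14 CPM) while VWF rose (4.54 and 6.04 CPM). For 4 epithelial markers the sum was 17.4 to 18.9 and 9.77 to 9.93 CPM. There KRT8 fell (16.0 and 6.11 CPM) while EPCAM rose (1.28 and 2.85 CPM). The leukocyte marker PTPRC rose from 0.120 ± 0.0399 to 0.581 ± 0.237 CPM (SD, n = 2), a low level in both groups. The part of these markers in the results was not tested.

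Both receptors and the 2 leading synthases fell after abemaciclib, as did CEMIP, while HAS3, HYAL2, HYAL3 and CEMIP2 rose. In all, 4 genes were higher and 6 lower (quasi-likelihood test of edgeR, with p-values adjusted by Benjamini-Hochberg over 17207 genes and a threshold of 0.05). Most of the transcriptome differed between the groups: 77.3% of all genes tested passed the same test (38% of all tested genes higher and 39.3% lower), so a count of 10 of 10 is read against a high background. Falls of at least 4-fold were seen in HAS1, HAS2 and CEMIP, against 7.35% of all tested genes, and falls of at least 2-fold in 5 of the 10, against 17.4%. HYAL2 alone of the 10 rose by at least 2-fold, against 13.8% of all tested genes. In all 10 genes both treated libraries lay on one side of both untreated ones, which held for 87.9% of all tested genes. The median log2 fold change was -1.08 over the 10 genes and -0.01 over all genes tested. The 10 genes were chosen with earlier results of these data known, so these shares and medians are descriptions only.

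**Figure D1:**
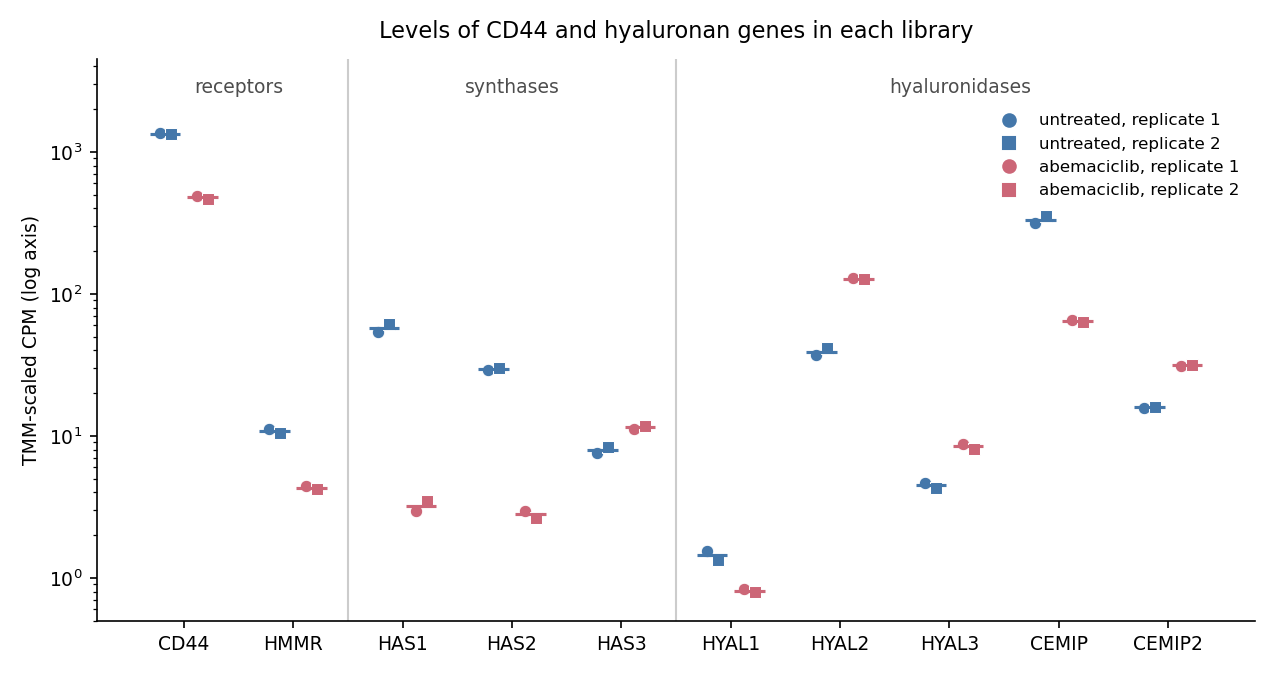
Level of each gene in each library, as TMM-scaled CPM on a log axis; points are libraries, horizontal bars are group means (n = 2). The untreated and abemaciclib libraries are apart for all 10 genes, from CD44 at 1352 CPM in an untreated library down to HYAL1 at 0.797 CPM in an abemaciclib library.

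CD44 (ENSG00000026508, GRCh38 chromosome 11, 35138870 to 35232402, plus strand) stood at 1352 and 1331 CPM in the untreated libraries and at 490.3 and 469.4 CPM after abemaciclib. The 2 libraries of each group lay close together and the groups were far apart. The group means were 1341 ± 15.4 and 479.8 ± 14.8 CPM (SD, n = 2), a log2 fold change of -1.48 ± 0.03 (SE, edgeR adjusted p = 7.58e-28), or 2.80-fold lower. Since these are bulk libraries, fewer cells with the transcript and less of it per cell cannot be told apart. The values sum all CD44 isoforms, and the standard form and the variant forms that differ by alternative exons were not separated. Its antisense gene CD44-AS1 was at 0 counts in every library, and AL133330.1, which overlaps it on the same strand, had at most 3 counts in a library.

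Of 1878 other genes with a mean of at least 100 CPM, the 5 whose pattern over the 4 libraries was nearest to that of CD44 were PFKP, CDK5RAP3, LMAN1, CDKN1A and HLA-B. The measure was the Euclidean distance between log2(CPM + 1) values centred on each gene's mean, and it ran from 0.0482 for PFKP, the platelet-type phosphofructokinase, to 0.0625 for HLA-B, a class I antigen-presenting molecule. Their log2 fold changes were between -1.52 and -1.42. With 4 libraries in 2 groups, this likeness is mostly a like fold change.

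HMMR, also known as RHAMM, is a hyaluronan receptor that inside the cell binds the mitotic spindle (ENSG00000072571, chromosome 5, 163460203 to 163491945, plus strand). It was measured at 11.3 and 10.5 CPM untreated and 4.40 and 4.25 CPM after the drug. Both treated libraries were below both untreated ones, with means of 10.9 ± 0.550 and 4.33 ± 0.108 CPM (SD, n = 2). The log2 fold change came to -1.33 ± 0.12 (SE, edgeR adjusted p = 3.51e-11), close in size to that of CD44. HMMR-AS1 on the opposite strand was at 0 counts.

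Genes that act with HMMR on the spindle or mark mitotic cells were set beside it. Of 10 such genes, 2 were higher, 7 lower and 1 did not pass the test, with a median log2 fold change of -0.39. The shares over all genes tested were 38% higher and 39.3% lower, with 77.3% past the test. The proliferation marker MKI67 (-2.04 ± 0.14), the topoisomerase TOP2A (-1.23 ± 0.07) and the mitotic kinase CDK1 (-1.05 ± 0.09) fell furthest. The spindle assembly factor TPX2, to which HMMR binds, fell by 0.14 ± 0.05 on the log2 scale, and the kinase AURKA that TPX2 activates was at -0.10 ± 0.06 (edgeR adjusted p = 0.0980). The dynein light chain DYNLL1 (0.59 ± 0.03) and the mitotic cyclin CCNB1 (0.48 ± 0.05) rose. The 10 genes thus did not all move one way, and the part of cell division in the HMMR value was not tested.

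Short stretches before the RefSeq start sites of the 2 receptors are shown because each holds one of the sequence motifs searched. Promoter windows of 250 bases before the start (RefSeq, GRCh38.p14) were found for 9 of the 10 genes, HAS2 being the other one. They were searched on both strands for TCF/LEF sites, for which the letters CTTTGAA were used with a second form, CTTTGAT. The cell cycle element CHR was searched as TTTGAA and, in a second form, as TTTAAA, the hypoxia response core as ACGTG and the E-box as CACGTG. A TCF/LEF match of the first form thus also counts for CHR, and every E-box counts for the hypoxia core. Capitals mark matches. The CD44 stretch is chr11:35138943-35138972 and the HMMR stretch chr5:163460595-163460624, both on the plus strand and both inside an exon of the GENCODE 29 annotation.
CD44: aggttccccgaccCACGTccctggcagccc
HMMR: gtggggagaTTTGAATTTGAAaccggtagg

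The CD44 window held 1 ACGTG, on the minus strand with its match beginning at position -215 from the start, and none of the other motifs. Among 35116 promoters of the same length, 18.5% held an ACGTG. HMMR held 2 adjacent TTTGAA on the plus strand, at positions -28 and -22, and CHR letters were found in 21.9% of all promoters. TCF/LEF letters were found in none of the 9 genes' windows, against 5.94% of all promoters. A match is a description of the letters, and a lack of one says only that they are not in this window.

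The synthases moved in opposite directions. HAS1 (ENSG00000105509, chromosome 19, 51713112 to 51723994, minus strand) was at 53.5 and 61.8 CPM untreated and at 2.95 and 3.48 CPM after abemaciclib. The untreated libraries differed somewhat from each other, and both lay far above the treated ones. Means were 57.6 ± 5.88 and 3.22 ± 0.378 CPM (SD, n = 2), a log2 fold change of -4.15 ± 0.10 (SE, edgeR adjusted p = 3.49e-22), or 17.7-fold lower. Only 1.58% of all tested genes had a lower log2 fold change.

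HAS2, usually the main synthase of mesenchymal cells (ENSG00000170961, chromosome 8, 121612116 to 121641390, minus strand), was at 28.96 and 30.25 CPM untreated and 2.95 and 2.66 CPM after the drug. The groups were again well apart, with means of 29.6 ± 0.912 and 2.80 ± 0.207 CPM (SD, n = 2). The log2 fold change came to -3.41 ± 0.11 (SE, edgeR adjusted p = 2.48e-23), or 10.6-fold lower. The antisense transcript HAS2-AS1, which overlaps the HAS2 gene, went from 2.15 ± 0.362 to 1.39 ± 0.382 CPM, and its log2 fold change of -0.65 ± 0.27 passed the test (adjusted p = 0.0317 in edgeR). How the counting treated strand is not given in the sources used here, and without that setting reads of a gene and its antisense partner cannot be told apart. Whether HAS1 fell by more than HAS2 was not tested.

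HAS3 (ENSG00000103044, chromosome 16, 69105564 to 69118719, plus strand) was at 7.56 and 8.31 CPM untreated and 11.2 and 11.8 CPM after the drug. It rose from 7.93 ± 0.535 to 11.5 ± 0.398 CPM (SD, n = 2), a log2 fold change of 0.53 ± 0.11 (SE, edgeR adjusted p = 4.53e-05), and was the only synthase to rise. CHTF8, a neighbour that overlaps it on the opposite strand, also rose, from 78.7 ± 5.48 to 99.0 ± 2.19 CPM (0.33 ± 0.04). The part of CHTF8 reads in the HAS3 value was not tested.

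The bases before the RefSeq start sites of HAS1 and HAS3 are shown because these 2 synthases moved in opposite directions. HAS1 is on the minus strand (chr19:51723995-51724241, which leaves out 3 bases that lie in an annotated exon), and HAS3 on the plus strand (chr16:69107290-69107539). The HAS3 stretch lies within the gene as annotated in GENCODE 29, which begins at 69105564, but outside annotated exons.
HAS1: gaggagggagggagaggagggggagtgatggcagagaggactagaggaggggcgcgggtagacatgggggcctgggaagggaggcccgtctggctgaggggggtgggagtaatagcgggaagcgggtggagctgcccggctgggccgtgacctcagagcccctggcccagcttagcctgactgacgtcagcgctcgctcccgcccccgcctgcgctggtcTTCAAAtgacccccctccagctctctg
HAS3: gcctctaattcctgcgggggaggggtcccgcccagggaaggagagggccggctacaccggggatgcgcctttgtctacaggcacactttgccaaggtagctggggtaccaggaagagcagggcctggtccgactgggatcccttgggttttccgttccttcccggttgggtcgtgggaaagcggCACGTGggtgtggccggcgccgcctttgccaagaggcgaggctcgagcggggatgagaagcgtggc

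HAS1 held 1 TTTGAA at position -30 on the strand opposite to the gene, so that the printed strand reads TTCAAA there. HAS3 held the E-box CACGTG at position -66, which counts as an ACGTG on each strand, and 6.34% of all promoters held an E-box. Their GC contents were 69.2% and 66% over the 250 bases, against a median of 58% over all promoters.

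Counted per kilobase of the longest annotated coding transcript, which allows levels to be compared between genes, the 3 synthases together went from 34.1 and 38.5 CPM per kilobase in the untreated libraries to 4.76 and 5.08 after the drug. HAS1 made up 75.3% ± 1.18 of the untreated sum and HAS2 19.5% ± 1.08, while HAS3 was 5.19% ± 0.0982 (SD, n = 2). After the drug HAS3 was the largest share at 55.4% ± 0.606, with HAS1 at 30.9% ± 2.23 and HAS2 at 13.6% ± 1.63. No test was run on these shares and sums, which are descriptions. The switch in the leading synthase comes with a much lower sum: HAS3 itself went from 1.88 to 2.72 CPM per kilobase.

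**Figure D2:**
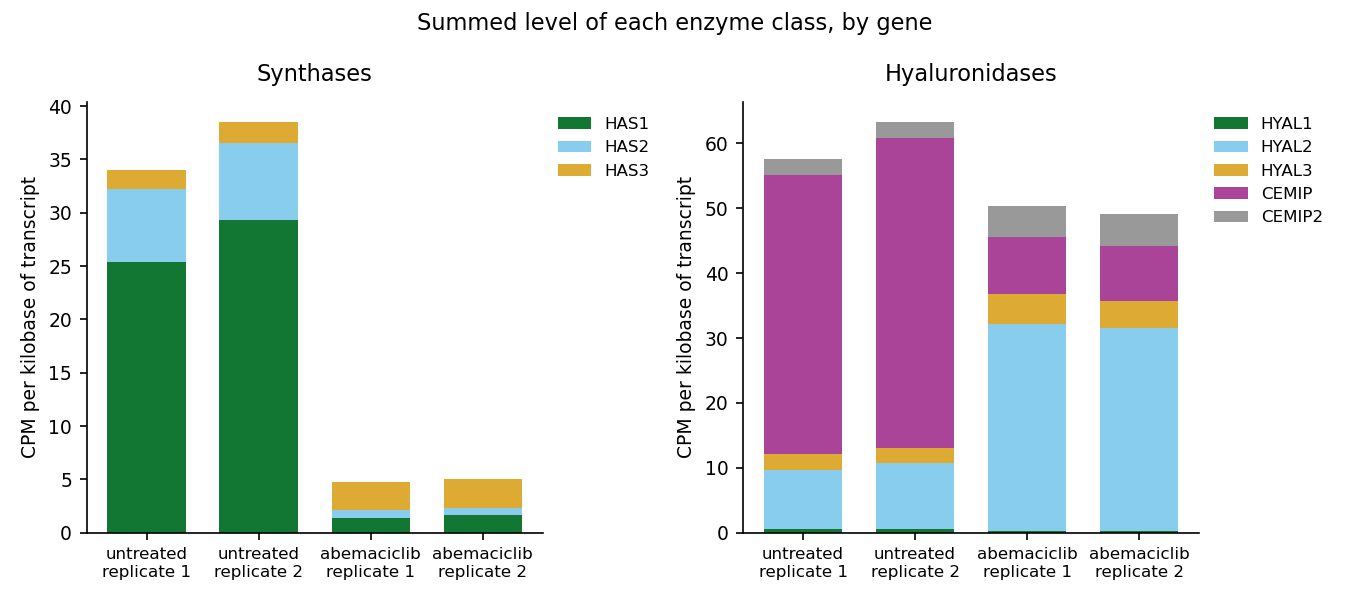
Stacked levels of the synthases (left) and hyaluronidases (right) in each of the 4 libraries, in CPM per kilobase of the longest coding transcript. The synthase sum is 34.1 and 38.5 untreated and 4.76 and 5.08 after abemaciclib, while the hyaluronidase sum is 57.6 and 63.2 and then 50.3 and 49.1, and changes from mainly CEMIP to mainly HYAL2.

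Among the genes listed as hyaluronidases, CEMIP fell and HYAL2 rose. CEMIP binds hyaluronan and is needed for its breakdown outside lysosomes in fibroblasts (ENSG00000103888, chromosome 15, 80779343 to 80951776, plus strand). It was at 316.5 and 351.3 CPM untreated and at 65.3 and 62.9 CPM after the drug. The spread of the untreated pair was small beside the gap between groups, with means of 333.9 ± 24.6 and 64.1 ± 1.68 CPM (SD, n = 2). This is 5.22-fold lower, or -2.38 ± 0.05 on the log2 scale (SE, edgeR adjusted p = 3.44e-15). MESD, which overlaps it on the opposite strand, moved the other way (0.83 ± 0.03).

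HYAL2, a GPI-anchored hyaluronidase that cuts long hyaluronan into shorter pieces (ENSG00000068001, chromosome 3, 50317790 to 50322906, minus strand), was at 36.9 and 41.6 CPM untreated and 129.1 and 126.5 CPM after the drug. It went from 39.2 ± 3.33 to 127.8 ± 1.89 CPM (SD, n = 2). The log2 fold change came to 1.70 ± 0.05 (SE, edgeR adjusted p = 5.92e-23), or 3.25-fold higher, and 94.2% of all tested genes had a lower one. TUSC2, which overlaps it on the same strand, rose as well (0.90 ± 0.07), and how the counting shared reads between them was not tested. All HYAL2 counts were whole numbers.

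The bases before the start sites of CEMIP and HYAL2 outside annotated exons are shown because these are the leading genes of their class before and after the drug. They are chr15:80779120-80779342 on the plus strand and chr3:50322907-50322995 on the minus strand. Neither full window of 250 bases held a match to any motif searched.
CEMIP: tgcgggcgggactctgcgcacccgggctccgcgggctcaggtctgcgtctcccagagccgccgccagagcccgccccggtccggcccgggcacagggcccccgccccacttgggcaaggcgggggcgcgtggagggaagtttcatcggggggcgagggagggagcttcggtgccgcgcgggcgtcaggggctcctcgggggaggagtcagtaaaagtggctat
HYAL2: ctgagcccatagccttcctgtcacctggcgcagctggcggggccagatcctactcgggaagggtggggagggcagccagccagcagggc

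CEMIP2 is a transmembrane relative of CEMIP that acts at the cell surface (ENSG00000135048, chromosome 9, 71683366 to 71816690, minus strand). Its level was 15.8 and 16.1 CPM untreated and 31.0 and 31.8 CPM after the drug. It rose from 16.0 ± 0.205 to 31.4 ± 0.549 CPM (SD, n = 2), a log2 fold change of 0.98 ± 0.07 (SE, edgeR adjusted p = 7.71e-14). The 2 CEMIP genes therefore changed in opposite directions.

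HYAL1, the lysosomal hyaluronidase (ENSG00000114378, chromosome 3, 50299889 to 50312381, minus strand), had the fewest counts of the 10 genes, with 42 and 44 counts untreated and 20 and 27 counts after the drug. These are 1.56 and 1.34 CPM and 0.831 and 0.797 CPM, where 3 counts correspond to 0.0898 to 0.127 CPM. The groups did not overlap, with a log2 difference of -0.83 ± 0.32 (SE, edgeR adjusted p = 0.0185). The call depended on the libraries used: the adjusted p was 0.123 without untreated replicate 1, 0.0776 without abemaciclib replicate 2 and 0.216 in DESeq2, and 0.216 was the highest over the alternatives run.

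HYAL3, whose role in hyaluronan breakdown is less clear (ENSG00000186792, chromosome 3, 50292831 to 50299468, minus strand), was at 4.67 and 4.31 CPM untreated and 8.81 and 8.15 CPM after the drug. The rise was 0.92 ± 0.13 on the log2 scale (SE, edgeR adjusted p = 2.29e-07). Of the 10 genes it alone had counts that were not whole, in all 4 libraries, so some of its reads also matched elsewhere. It overlaps IFRD2 and NAA80 on its own strand, but which genes shared its reads was not tested. IFRD2 rose (0.84 ± 0.06) and NAA80 fell (-1.68 ± 0.11), and the part of IFRD2 and NAA80 reads in the HYAL3 value was not tested.

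Together, the 5 genes listed as hyaluronidases went from 57.6 and 63.2 CPM per kilobase untreated to 50.3 and 49.1 after the drug. This sum depends on the length scaling: in plain CPM it went from 375.4 and 414.6 untreated to 235 and 230.1 after the drug, a larger fall. CEMIP made up 75.1% ± 0.551 of the untreated sum and 17.5% ± 0.157 of the treated one (SD, n = 2). HYAL2 made up 16.0% ± 0.298 and 63.4% ± 0.158. CEMIP2 went from 4.06% ± 0.217 to 9.68% ± 0.337, HYAL3 from 3.84% ± 0.471 to 8.77% ± 0.330, and HYAL1 from 0.959% ± 0.162 to 0.650% ± 0.00780. CEMIP thus led untreated and HYAL2 after the drug.

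**Figure D3:**
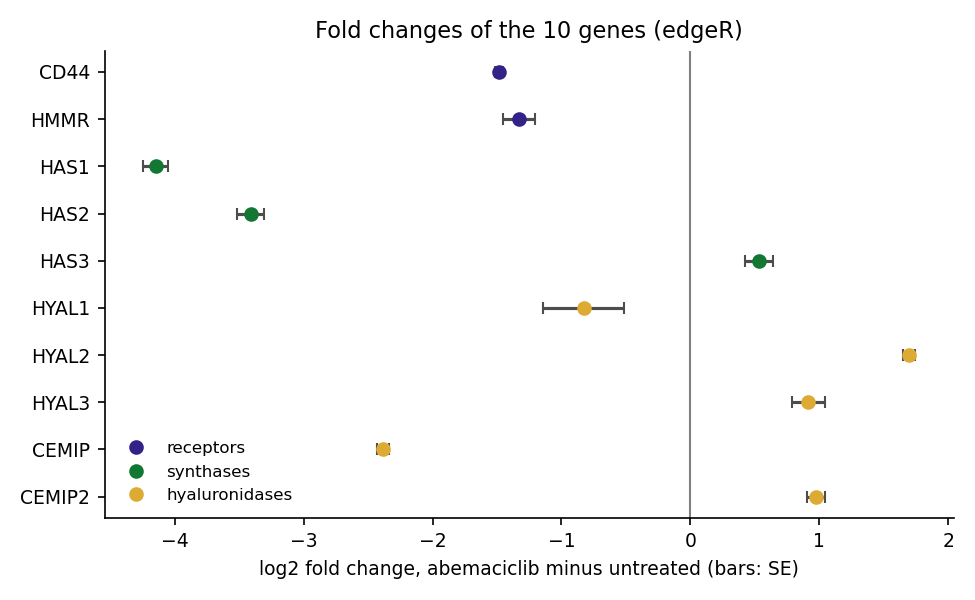
Log2 fold change of each gene, abemaciclib minus untreated, with its standard error (edgeR, 2 libraries a group); colours give the class. HAS1 at -4.15 and HYAL2 at 1.70 are the ends of the range, and HYAL1 has the widest error at 0.32.

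The order of the 10 genes by level per kilobase changed below the first place. In the untreated group CD44 led at 234 CPM per kilobase, followed by CEMIP (45.4), HAS1 (27.3), HYAL2 (9.67), HAS2 (7.07), HMMR (3.50), CEMIP2 (2.45), HYAL3 (2.31), HAS3 (1.88) and HYAL1 (0.576). The libraries of neighbours in this order did not overlap, but CEMIP2 (2.42 and 2.47) and HYAL3 (2.40 and 2.22) nearly touched. The order of this pair rests on the length used, in both groups. The union of exons is 9625 bases for CEMIP2, against 6523 for its longest coding transcript. For HYAL3 these lengths are 2030 and 1942 bases. A lack of overlap between libraries does not cover that choice. After the drug the order was CD44 (83.7), HYAL2 (31.5), CEMIP (8.71), CEMIP2 (4.81), HYAL3 (4.37), HAS3 (2.72), HAS1 (1.52), HMMR (1.40), HAS2 (0.669) and HYAL1 (0.323). Here HAS1 (1.40 and 1.65) and HMMR (1.42 and 1.37) overlapped. CD44 was thus the most abundant of these transcripts in every library, while HAS1 and HAS2 dropped from the upper part of the order to the lower part.

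Around these genes, 82 others of the pathway were listed by role, of which 67 passed the filter. In all, 29 were higher, 33 lower and 5 not past the test, with a median log2 fold change of -0.11. Over all genes tested, 77.3% passed, 38% higher and 39.3% lower, and the median was -0.01.

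Among the enzymes that make the UDP-sugar building blocks, 4 of 12 were higher and 8 lower, with a median log2 fold change of -0.29. GFPT2, a form of the rate-limiting enzyme of the hexosamine pathway, fell furthest, from 1122 ± 43.5 to 451.9 ± 1.94 CPM (-1.31 ± 0.03). PGM3, a later step of the same pathway, fell by 0.57 ± 0.06 on the log2 scale, and hexokinase HK1 rose (0.88 ± 0.03). UGDH, which makes UDP-glucuronic acid, fell slightly (-0.21 ± 0.05).

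Of the enzymes that take apart hyaluronan fragments in lysosomes, the hexosaminidase subunit HEXA rose (1.06 ± 0.03) and the glucuronidase GUSB fell (-1.20 ± 0.05). The other hyaluronidases SPAM1 and HYAL4 did not pass the filter, with at most 1 count in a library for SPAM1 and 0 for HYAL4.

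Of 16 hyaluronan-binding matrix proteins 7 passed the filter, 2 of them higher, 4 lower and 1 not past the test. TNFAIP6, which transfers heavy chains onto hyaluronan, fell from 91.2 ± 6.73 to 12.6 ± 0.631 CPM (-2.86 ± 0.06). The link protein HAPLN2 went from 35 counts over the untreated libraries to 0, at least 11.3-fold lower when the treated group is set to the floor of 3 counts in all. ITIH4 rose from a low level (0.132 ± 0.0295 to 0.710 ± 0.416 CPM, 2.43 ± 0.56), and its treated libraries differed widely (0.415 and 1.00 CPM). Versican, VCAN, a large hyaluronan-binding proteoglycan, fell slightly (-0.43 ± 0.03). The median of the list was -0.51, also with HAPLN2 at its bound.

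Of 6 other hyaluronan receptors 5 passed the filter, 2 higher and 3 lower, with a median of -0.30, also with TLR4 at its bound. TLR4, a sensor of bacterial lipids that also responds to hyaluronan fragments, had 0 counts in the untreated libraries and 53 after the drug, at least 18.2-fold higher with the untreated group set to the same floor. The scavenger receptor STAB1 (-3.04 ± 0.19) and TLR2 (-1.68 ± 0.16) fell.

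Of 9 linkers and cofactors of the CD44 protein 6 were higher, 2 lower and 1 not past the test, with a median of 0.43, beside 38% higher among all genes tested. The receptor kinase MET, for which CD44 variants act as a co-receptor, rose from 56.2 ± 2.67 to 196.5 ± 3.19 CPM (1.81 ± 0.04). Ezrin, EZR, which ties the CD44 tail to actin (0.59 ± 0.06), and ankyrin ANK3 (0.58 ± 0.09) rose as well. Of 8 genes of CD44 shedding and cleavage 6 were higher and 2 lower, with a median of 0.49, led by the gamma-secretase subunits PSEN2 (2.09 ± 0.10), PSENEN (0.97 ± 0.04) and NCSTN (0.94 ± 0.03). MMP14, a membrane protease that sheds CD44, went from 2256 ± 153.5 to 3149 ± 38.7 CPM (0.48 ± 0.04), and the sheddase ADAM10 fell slightly (-0.20 ± 0.05).

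Of 7 tested splicing factors that act on the variable CD44 exons, 4 were higher, 1 lower and 2 not past the test, with a median of 0.16. HNRNPM (0.49 ± 0.04) and TRA2B (0.42 ± 0.04) rose. The epithelial splicing factor ESRP1 rose from 0.169 ± 0.0229 to 0.438 ± 0.0905 CPM (1.39 ± 0.55), a low level in both groups. Among 5 other CD44 ligands, 4 fell and 1 rose, with a median of -0.88. Osteopontin, SPP1, rose from 691.2 ± 10.4 to 1694 ± 22.4 CPM (1.29 ± 0.03), while fibronectin, FN1, fell (-1.85 ± 0.03). LGALS9 fell from a low level, 0.991 ± 0.537 to 0.107 ± 0.0255 CPM (-3.17 ± 0.57). Its counts were 37 and 20 untreated, which differ widely, and 3 and 3 after the drug, at the floor.

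**Figure D4:**
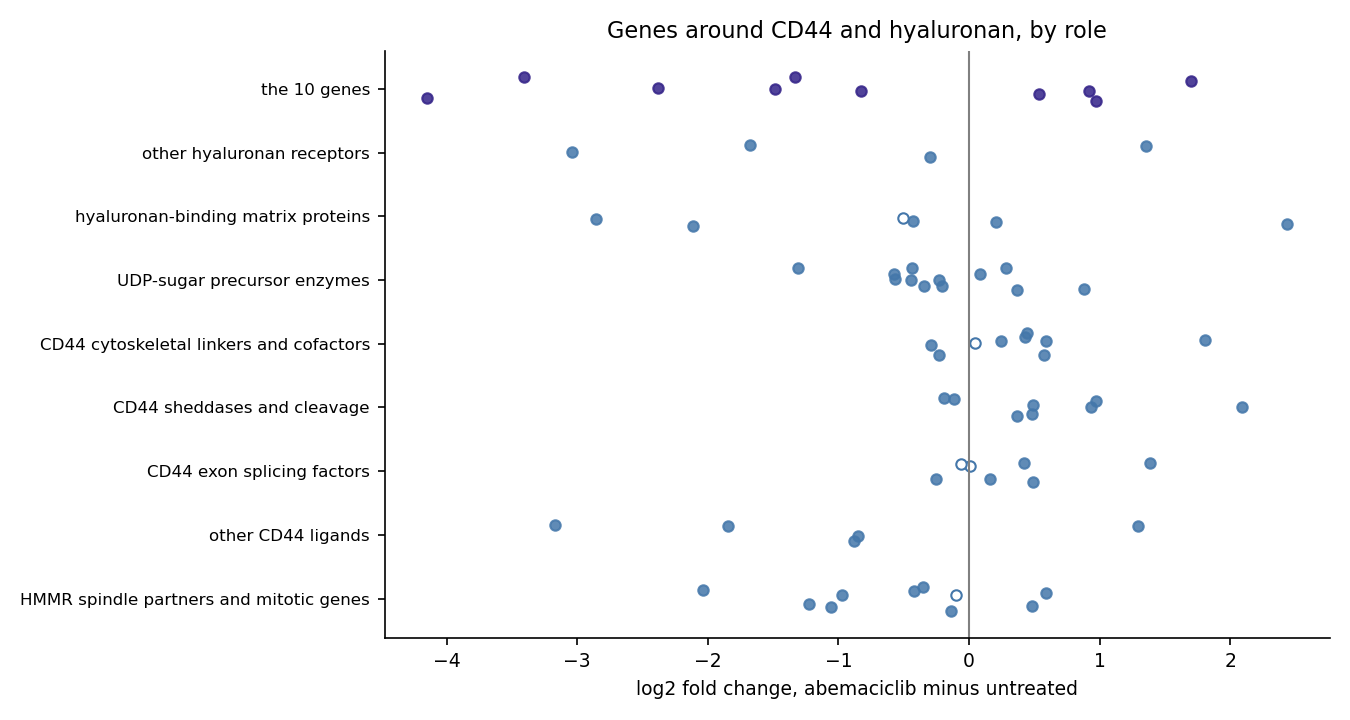
Log2 fold change of the 10 genes and of the tested genes of 8 other lists, abemaciclib minus untreated; filled points passed the edgeR test and open points did not. TLR4 and HAPLN2, which had 0 counts in a group, are left out, as are the antisense and lysosomal lists; the lists spread to either side of 0, with medians from -0.88 for other CD44 ligands to 0.49 for CD44 shedding and cleavage.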

How the data were processed

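Poly-A RNA of 4 libraries (TruSeq Stranded mRNA, per the labels' protocols) was sequenced. The deposited tables give an expected count per gene, an estimate that divides reads matching several genes, per the file headers. STAR 2.7.2b, RSEM 1.3.1 and GRCh38 are named in the submitters' processing notes; the annotation and strand setting are not given in the sources used here. The 6.12% to 6.70% of deposited values that had decimals were rounded. Genes were tested with edgeR 4.0.16 (R 4.3.3, limma 3.58.1): filterByExpr, TMM, robust quasi-likelihood F test on group alone, two-sided, Benjamini-Hochberg adjustment over 17207 genes. CPM are TMM-scaled, and a standard error is the size of the log2 fold change over the square root of F. The same test was also run on counts simulated with known changes, using means and dispersions taken from the fit to these data. Coordinates, overlaps and lengths came from GENCODE 29 (GRCh38), matched by Ensembl identifier for 58444 genes. Promoters came from RefSeq (GRCh38.p14). A planned search for protein motifs was not analysed here. Alternatives were DESeq2 1.42.0, other scalings and filters, unrounded counts, a replicate block and leaving out each library.

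The 10 genes, the lists, the motifs and the tests were chosen with earlier results of these data known. All 10 genes are named; of each other list, the 3 with the largest change among those past the test, plus genes that bear on a value of the 10. UGDH, VCAN, MMP14, ADAM10, TPX2, AURKA, DYNLL1 and CCNB1 were added after their values were seen. Some listed genes are not reported here. Bounds against a floor cover counting error alone, as the reads carry no molecular identifiers. Each library counted once. Replicates differed by more than sampling noise (chi-square per degree of freedom 3.56 untreated and 1.95 abemaciclib), which does not show that they were separate cultures. The common dispersion in edgeR corresponds to a variation of only 2.86% between libraries of a group, estimated with 2 residual degrees of freedom.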

Additional observations from a re-analysis of the deposited data

How the results depend on the processing

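Under all 11 alternatives the 10 genes kept their direction, and 9 of them their call; HYAL1 was not called in DESeq2 (adjusted p = 0.216), without untreated replicate 1 (0.123) or without abemaciclib replicate 2 (0.0776), and the cause was not tested. CD44 lay between -1.51 and -1.43 (log2) and HAS3, the smallest change, between 0.47 and 0.61. The number of genes called was 10731 with DESeq2 and 13108 with the replicate block, against 13299; leaving out each library gave 12310 to 12875, where the lone library of a group is assumed to vary like the other group. The labels link same-numbered libraries by number alone. The correlation of their deviations was -0.0156 over 13428 genes, but with 2 pairs it cannot show whether they were prepared together. The replicate block changed no call among the 10 genes.

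The shares within each class depend on the length used. With the union of exons as length, the share of HAS1 after the drug was 33.5%, that of HAS3 was 4.38% untreated and 50.8% after the drug, that of CEMIP 77.2% and 19.0%, and that of HYAL2 15.2% and 63.6%. With no length scaling, HAS1 was 60.5% and 18.3%, HAS3 8.34% and 65.6%, CEMIP 84.5% and 27.6%, and HYAL2 9.92% and 55.0%. HAS1 and CEMIP led untreated and HAS3 and HYAL2 after the drug under each of them. The sum of the 5 genes listed as hyaluronidases also depends on it (395 ± 27.7 and 232.5 ± 3.52 CPM with no length scaling).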

Other observations

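HYAL1, HYAL2 and HYAL3 lie side by side on chromosome 3 (50292831 to 50322906), together with TUSC2, IFRD2 and NAA80, all on the same strand. After abemaciclib HYAL2 (1.70), HYAL3 (0.92), TUSC2 (0.90) and IFRD2 (0.84) had higher log2 levels and HYAL1 (-0.83) and NAA80 (-1.68) lower ones, so the neighbourhood did not move one way. IFRD2 went from 29.1 ± 0.0606 to 52.3 ± 2.08 CPM and NAA80 from 19.6 ± 0.663 to 6.22 ± 1.37 CPM (SD, n = 2). IFRD2, NAA80 and TUSC2 were chosen because they overlap these genes.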
